A study of Mus musculus with 192 samples.

Results

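The cells described are the middle of a CD135 ranking of single mouse bone marrow progenitors. In each of 2 library pools of 96 cells, the cells were ranked by the CD135 signal that the sorter recorded, and ranks 33 to 64 formed the middle class. The 32 cells with the highest signal formed the upper class and the 32 with the lowest the lower class. The middle class held 64 of the 192 cells, all of which were kept, beside 64 upper and 63 lower cells. Ranking used the protein signal and no RNA value. The question was which genes were highest or lowest in the middle, as opposed to changing in steps from one end of CD135 to the other.

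The cells came from C57BL/6 mice aged 8 to 16 weeks, were enriched for cKit on magnetic beads and were sorted 1 per well as LSK cells, per the labels. Cas9 and Dach1-GFP strains are listed for the study, but the strain given for every cell is C57BL/6. LSK stands for lineage-negative, Sca-1-positive and cKit-positive, the marrow fraction that holds blood stem cells and their earliest multipotent progeny. No genotype or treatment distinguished the 3 classes. The labels name no animal, so all cells were treated as 1 biological sample, and no test and no p-value was possible. Every interval given is a 95% interval for counting error alone and covers neither the spread between cells nor that between mice. The labels do not say whether the pools came from the same mice. They share no cell, but used the same 96 cell indices, so a cell was identified by pool and index together.

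CD135 is the protein of Flt3, a receptor tyrosine kinase for the cytokine FLT3 ligand. In mouse LSK cells it is low on long-term stem cells and highest on progenitors that lean towards the lymphoid lineages, and stem cell genes are known to decline as it increases. Intermediate CD135 is therefore usually read as a stage between the stem cell and the lymphoid-primed progenitor, and each gene's level in the middle class shows whether its RNA was intermediate too.

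The median CD135 signal was 198 arbitrary units in the lower, 624 in the middle and 1686 in the upper class. The borders were drawn through a continuous range. In pool 1 the last upper cell had 1118 and the first middle cell 1110, and the last middle cell 341 and the first lower cell 340. In pool 2 these values were 1132.4 and 1132.1 at the upper border and 423 and 402 at the lower. The other antibody signals did not all run in the same order. Median cKit signal was 8311, 6995 and 4810 in the lower, middle and upper class, and CD150, a stem cell antigen, was 79.5, 68.4 and 61.5. The order of CD150 held in pool 1 but not in pool 2, where the medians were 69.0, 66.2 and 69.4. Kit, which encodes cKit, followed its protein in the summed pools, at 511, 444 and 306 counts per 1000000 gene UMIs. This order of Kit held in pool 2 (561, 409 and 270) but not in pool 1 (469, 478 and 338). Sca-1 had its highest median in the middle, 2031 beside 1048 in the lower and 1906 in the upper class, and this order was found in each pool. CD11b, an integrin chain of myeloid cells, was also highest in the middle, at 115 beside 81.6 and 91.4, and in each pool. The ranges of both signals overlapped widely between classes.

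The middle cells gave 1226308 gene UMIs (unique molecular identifiers, each counting 1 captured RNA molecule), the lower cells 1277353 and the upper cells 1201181. Median UMIs per cell were 17426 in the middle, 18031 in the lower and 17227 in the upper class, and the median share of spike-in UMIs was 3.49%, 3.19% and 3.52%. Levels are given as counts per 1000000 (CPM), a gene's UMIs in all cells of a class as a share of the class total without spike-ins. A log2 ratio compares the middle with both ends together unless an end is named. Fewer cells with a transcript and fewer molecules per cell both lower such a sum.

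A peak was a gene at least 1.5-fold above each end, and a dip a gene at least 1.5-fold below each end. Of 8714 genes with at least 50 UMIs, 152 (1.74%) were peaks and 159 (1.82%) were dips. At any size of difference, 2679 genes (30.7%) were above both ends and 2494 (28.6%) below both. In each pool separately, 948 genes (10.9%) were above both ends and 828 (9.5%) below both. Genes with many UMIs were rare among the calls: of 3265 genes with at least 200 UMIs, 12 were peaks and 3 were dips. Those dips were Jun, Tfrc and Atp6v1h. The median log2 ratio of all 8714 genes was -0.003, and 49.6% were higher in the middle.

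The pools gave separate looks at the same question. Judged alone, pool 1 had 370 peaks and pool 2 had 358, and 35 genes were in both sets. These were 9.46% of the peaks of pool 1, beside 4.11% of all tested genes that were peaks in pool 2. They were 9.78% of the peaks of pool 2, beside 4.25% of all tested genes in pool 1. For dips, 42 genes were shared by 429 in pool 1 and 460 in pool 2. These were 9.79% of the dips of pool 1, beside 5.28% of all tested genes that were dips in pool 2. They were 9.13% of the dips of pool 2, beside 4.92% of all tested genes in pool 1. Most peaks and dips of a single pool were thus not peaks or dips in the other.

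Genes that differed strongly between the ends mostly took an intermediate level. Of 278 genes at least 2-fold higher in the upper than in the lower class, 242 (87.1%) had a middle level between the ends. Of 366 genes at least 2-fold lower in the upper class, 305 (83.3%) did. On a log2 scale that sets the lower class at 0 and the upper class at 1, the median position of the middle was 0.577 among the genes higher in the upper class and 0.420 among those lower in it.

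**Figure D1:**
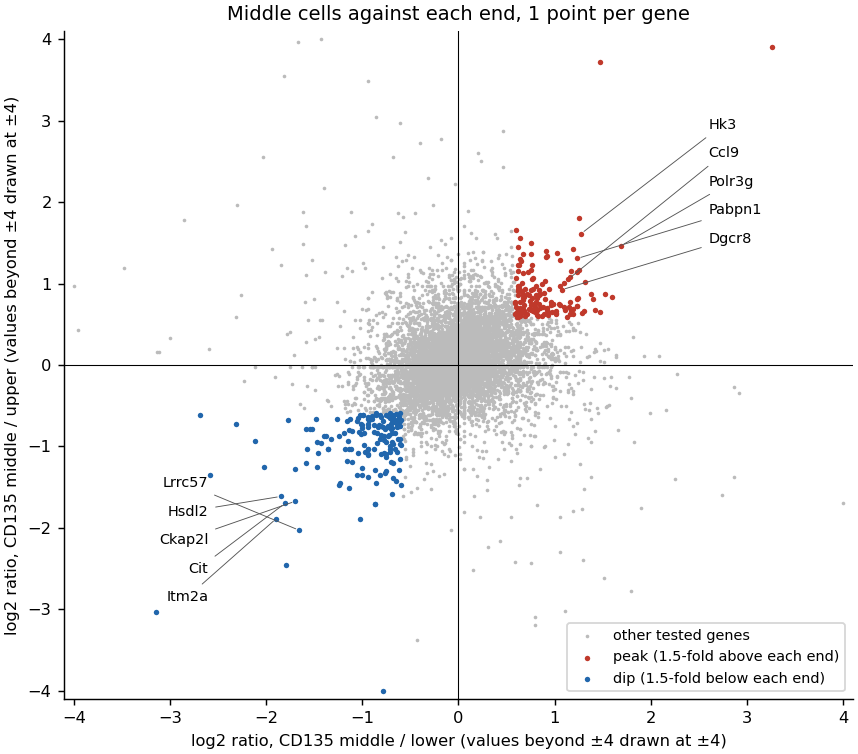
Each point is 1 of the 8714 tested genes, with the log2 ratio of middle to lower cells on the x axis and of middle to upper cells on the y axis. The 152 peaks lie in the upper right corner and the 159 dips in the lower left, and the labelled genes are the first 5 named of each direction.

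The 12 named genes above both ends were chosen by their values, as those whose smaller ratio lay farthest from 0 after counting error, among genes above both ends in each pool. Their values are therefore a description. All but Hlf were peaks. They had no common function by their known roles: a sugar kinase, a chemokine, parts of RNA transcription and processing, a signalling adaptor, a glycosylation enzyme and a stem cell transcription factor were among them.

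Hk3 encodes a hexokinase, which phosphorylates glucose, and is known from myeloid cells. Its level was 33.7 CPM in the lower, 81.6 in the middle and 26.6 in the upper class, 2.42-fold above the lower and 3.06-fold above the upper class (log2 ratio to both ends 1.43, 0.98 to 1.88). In pool 1 the levels were 29.0, 102 and 35.1 CPM, and in pool 2 39.1, 61.0 and 17.4, so the middle was highest in both. At least 1 UMI was found in 41 of 64 middle cells (64.1%, 51.1 to 75.7%), 24 of 63 lower cells (38.1%, 26.1 to 51.2%) and 19 of 64 upper cells (29.7%, 18.9 to 42.4%). With each cell thinned to 12147 UMIs, 28 of 57 middle, 14 of 59 lower and 10 of 56 upper cells had one. Over sixths of the CD135 ranking from lowest to highest, Hk3 was at 27.4, 39, 94.9, 67.3, 28.7 and 24.6 CPM, and both sixths of the middle class were above the other 4. No cell held more than 4.0% of its 175 UMIs. The gene lies on chromosome 13 (55005985 to 55021385, minus strand, GRCm38), where it overlaps Unc5a.

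Ccl9, on chromosome 11 (83572919 to 83578636, minus strand), encodes a chemokine of myeloid cells. It was at 32.1, 70.9 and 34.1 CPM in the lower, middle and upper class (log2 ratio 1.10, 0.65 to 1.55). Its UMIs came from 29 middle, 11 lower and 23 upper cells. The sixths showed an uneven course, 8.56, 51.9, 44.3, 99.3, 30.4 and 37.7 CPM, with the fourth sixth alone well above the second. Within the middle class the high level thus lay in the sixth with the higher CD135 signal.

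Polr3g, Pabpn1 and Dgcr8, genes of RNA synthesis and processing, were among the named peaks. How common such genes were among all tested genes was not counted. Polr3g, a subunit of RNA polymerase III, was at 7.83, 25.3 and 9.16 CPM in the lower, middle and upper class. Pabpn1, which binds the poly(A) tail in the nucleus, was at 14.9, 35.1 and 14.2 CPM, and it overlaps Gm20521, a readthrough model annotated at the same place. Dgcr8, the RNA-binding partner of Drosha in microRNA processing, was at 36, 75.8 and 39.96 CPM, with a UMI in 42 middle, 28 lower and 28 upper cells.

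Vav1 and Arhgap6 had more UMIs, 238 and 269 over the 3 classes. Vav1, an exchange factor for small GTPases that acts below receptors of blood cells, was at 47, 91.3 and 54.95 CPM (log2 ratio 0.85, 0.46 to 1.22). Its sixths were 51.4, 43.3, 87, 96, 54.1 and 55.7 CPM, a step up and a step down at the class borders. Arhgap6, a GTPase-activating protein, was at 61.1, 103 and 54.1 CPM. A UMI of Arhgap6 was found in similar numbers of cells, 40 lower, 40 middle and 38 upper, so that the difference lay in the UMIs per cell. It overlaps Hccs and Amelx, and as the strand used for counting is not given, reads of overlapping genes cannot be told apart.

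Mgat2, a Golgi enzyme that builds complex N-glycans, was at 59.5, 113 and 69.1 CPM and detected in 53 middle, 37 lower and 42 upper cells. Syt11, a synaptotagmin of vesicle traffic, was at 11, 26.1 and 7.49 CPM, and Pkp4, a plakophilin of cell junctions, at 11.7, 26.9 and 9.99 CPM. Over the sixths Syt11 was at 18.8, 4.33, 42.7, 8.42, 10.1 and 4.92 CPM, so that within the middle class only the third sixth was high. Fam84b was at 14.9, 33.4 and 15 CPM, but in pool 2 its middle level of 26.4 CPM was close to the 23.8 CPM of the lower class. With the middle narrowed to ranks 41 to 56 its log2 ratio was -0.06.

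**Figure D2:**
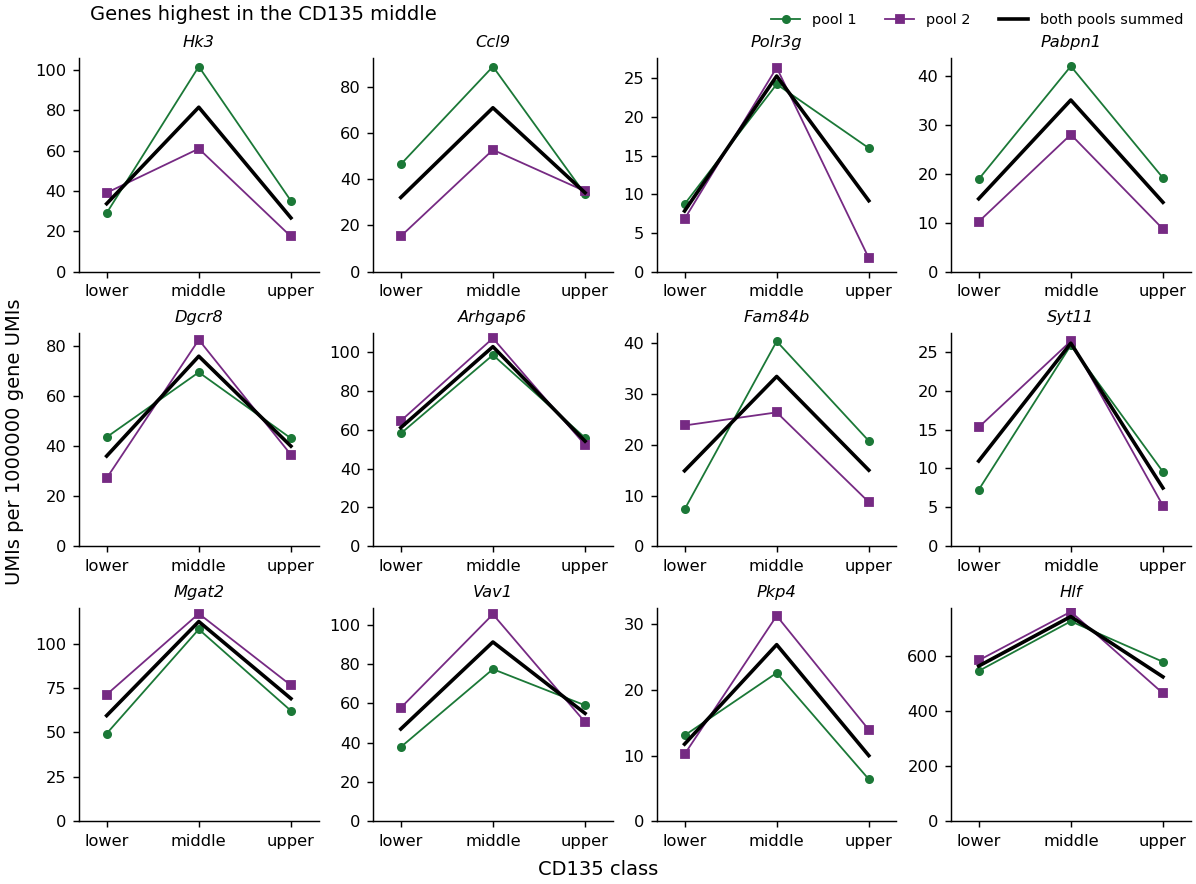
Levels of the 12 named genes above both ends, in UMIs per 1000000 gene UMIs, for the lower, middle and upper CD135 class, in each pool and with both pools summed. Every gene has its highest point in the middle of each pool, and the step is largest for Hk3, Polr3g and Syt11 and smallest for Hlf.

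The 12 named genes below both ends were chosen in the same way, and all but Top2a were dips. Most had few UMIs, so that their intervals were wide. Itm2a, a membrane protein on the X chromosome (107397099 to 107403376, minus strand), was at 24.3 CPM in the lower, 6.52 in the middle and 24.1 in the upper class, 3.71-fold lower in the middle (log2 ratio -1.89, -3.17 to -0.82). A UMI was found in 5 of 64 middle, 22 of 63 lower and 17 of 64 upper cells. In pool 1 it was at 18.9, 3.23 and 28.7 CPM and in pool 2 at 30.6, 9.89 and 19.1. In the highest sixth of CD135, however, it was at 9.84 CPM, close to the 10.1 CPM of the fourth sixth.

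Cit and Ckap2l, a kinase of cytokinesis and a protein of the mitotic spindle, were at 8.97 and 6.52 CPM in the middle. In the lower class Cit was at 31.3 and in the upper class at 29.1 CPM, and Ckap2l at 21.1 and 20.8 CPM. Few cells carried them: Ckap2l had a UMI in 10 lower, 2 middle and 6 upper cells, and a single cell held 20% of its UMIs. Over the sixths Ckap2l was at 3.42, 36.1, 4.74, 8.42, 0 and 41 CPM, so that its high values stood in the second and the sixth and not across both ends.

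Ubash3a, which restrains signalling from lymphocyte receptors, was at 14.1, 4.08 and 22.5 CPM. Hsdl2, a peroxisomal dehydrogenase-like protein, was at 23.5, 6.52 and 19.98 CPM, and both sixths of the middle (4.74 and 8.42 CPM) were below the other 4 (18.0 to 24.5 CPM). Ube4a and Ubfd1, of the ubiquitin system, were at 17.1 and 26.1 CPM in the middle. At the ends Ube4a had 36.8 and 39.1 CPM and Ubfd1 47 and 50.8 CPM. Tmem131 was at 40.7, 21.2 and 45.8, Gatd1 at 29.0, 12.2 and 34.1 and Lrrc57 at 18.0, 5.71 and 23.3 CPM. In pool 2 the lower class had Lrrc57 at 5.10 CPM, close to the 3.30 CPM of the middle. The second sixth, part of the lower class, had Lrrc57 at 5.77 CPM, as low as the middle sixths with 7.91 and 3.37 CPM.

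Jun was the dip with the most UMIs. It encodes a subunit of the AP-1 transcription factor and is an immediate early gene, on chromosome 4 (95049034 to 95052222, minus strand), where it overlaps the antisense gene Junos. Its level was 114 CPM in the lower, 62.8 in the middle and 95.7 in the upper class (log2 ratio -0.74, -1.13 to -0.37). The sixths formed a shallow trough, at 149, 83.7, 64.8, 60.6, 66 and 125 CPM. Low values thus extended from the second to the fifth sixth, and the outermost sixths were the high ones. Cells with a UMI numbered 32 of 63, 28 of 64 and 29 of 64, and the highest counts in a cell were 16, 10 and 24. With ranks taken over all 192 cells the log2 ratio was -0.40.

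Of the 13 immediate early genes with at least 10 UMIs, 12 were lower in the middle, with a median log2 ratio of -0.27 (-0.51 in pool 1 and -0.49 in pool 2), beside -0.003 for all tested genes. Of the 10 with at least 50 UMIs, 6 were below both ends (28.6% of all tested genes were), 1 was so in each pool (beside 9.5%) and 1 was a dip (beside 1.82%). Junb was at 24.3, 16.3 and 29.97 CPM and Egr1 at 14.1, 6.52 and 17.5, while the interval of Ier2 (-0.66 to 0.20) included 0. The upper cell with the highest CD135 signal, 4783 units, held 7.73% of the list's UMIs, more than any other cell. Immediate early genes are also known to respond to the handling of cells, and a part of handling in these values was not tested.

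**Figure D3:**
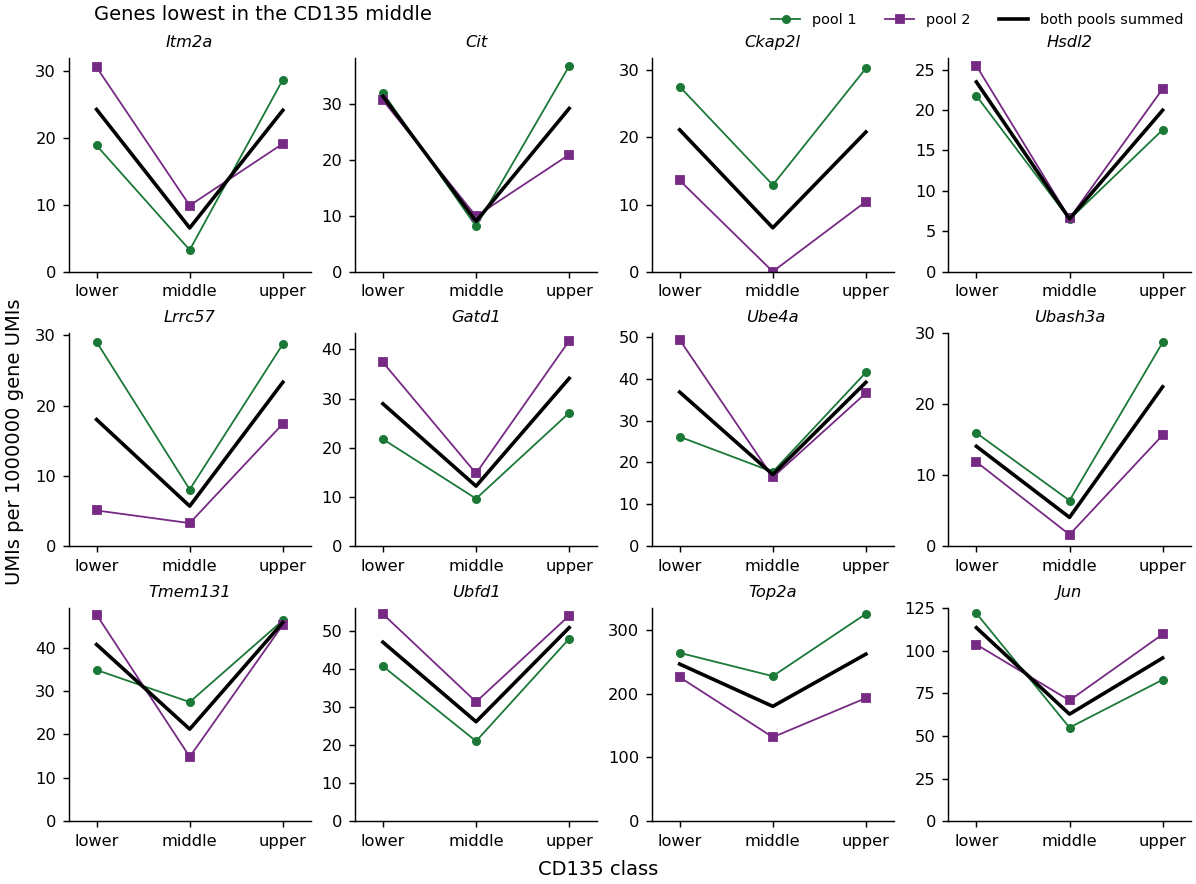
Levels of the 12 named genes below both ends, in UMIs per 1000000 gene UMIs, for the lower, middle and upper CD135 class, in each pool and with both pools summed. Every gene has its lowest point in the middle of each pool, and Lrrc57 in pool 2 shows nearly the same level in the lower class.

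Stem cell genes did not share 1 course. Of 20 measured, 15 were higher in the middle than in both ends together, with a median log2 ratio of 0.34 (0.23 in pool 1 and 0.43 in pool 2). Against the lower class alone the median was -0.07 and against the upper class 1.32. By class sums they thus stayed near the lower level in the middle as a group and were lower in the upper class. The typical cell, however, was graded. The median share of a cell's UMIs in these genes was 0.283% in the lower, 0.234% in the middle and 0.172% in the upper class. Among the 15 with at least 50 UMIs, 6 were above both ends and above both in each pool (beside 30.7% and 10.9% of all tested genes), and 2 were peaks (beside 1.74%). The 6 were Hlf, Mecom, Procr, Robo4, Ifitm1 and Ly6a.

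Hlf, a transcription factor of stem cells on chromosome 11 (90336536 to 90390895, minus strand), was at 564 CPM in the lower, 744 in the middle and 524 in the upper class (log2 ratio 0.45, 0.33 to 0.57). This was 1.32-fold and 1.42-fold above the ends, so it was not a peak by the 1.5-fold rule. With 2262 UMIs it was among the best counted of the named genes, and its levels were 546, 727 and 579 CPM in pool 1 and 585, 761 and 465 in pool 2. Almost all cells carried it, 59 lower, 60 middle and 57 upper cells. The sixths were 630, 508, 731, 758, 605 and 446 CPM.

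Robo4, a guidance receptor of stem cells and endothelium, and Procr, the protein C receptor that marks stem cells, were the 2 peaks of the list. Robo4 was at 13.3, 25.3 and 9.99 CPM. Procr was at 24.3, 36.7 and 11.7 CPM, but 1 middle cell held 10 of its 90 UMIs, and with the middle narrowed to ranks 41 to 56 the log2 ratio was -0.05. Ifitm1, an interferon-induced membrane protein, was at 246, 322 and 265 CPM, and Ly6a, which encodes Sca-1, at 31.3, 54.6 and 45 CPM. The order of Ly6a was that of the Sca-1 signal, highest in the middle.

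In the summed counts, Angpt1 and Meis1 were level from the lower to the middle class and lower in the upper. Angpt1, a ligand of the Tie2 receptor, was at 608, 589 and 283 CPM, with sixths of 664, 561, 697, 473, 345 and 223. Meis1, a homeobox factor, was at 329, 322 and 243 CPM. The median cell was lower at each step, at 612, 462 and 241 CPM for Angpt1 and 335, 287 and 215 CPM for Meis1. Esam, Tek and Pdzk1ip1 were already lower in the middle in the summed counts. Pdzk1ip1 was at 37.6, 12.2 and 3.33 CPM, Esam at 25.8, 7.34 and 2.5 and Tek at 26.6, 12.2 and 3.33.

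Transcription factors of stem cells and Hox genes had a median log2 ratio of -0.01 over 21 genes. Lmo2, a bridging protein of blood transcription complexes, was at 533, 656 and 540 CPM (0.29, 0.16 to 0.42), and Etv6 at 326, 378 and 300 CPM (0.27, 0.10 to 0.44). Gata2, at 194, 85.6 and 30.8 CPM, and Myb, at 553, 410 and 320 CPM, were lower at each step.

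**Figure D4:**
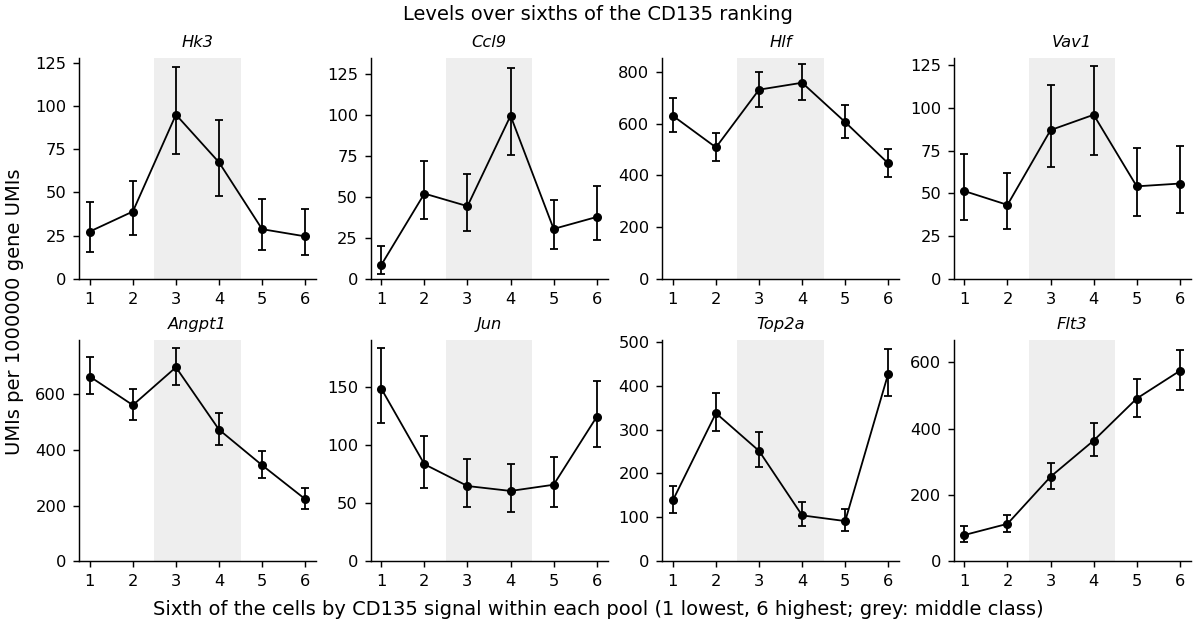
Levels of 8 genes over sixths of the CD135 ranking, 1 being the lowest and 6 the highest signal, in UMIs per 1000000 gene UMIs with exact Poisson 95% intervals, the middle class shaded. Hk3, Hlf and Vav1 are highest in the shaded sixths, Jun is lowest from the second to the fifth, Top2a has high values in the second and sixth, and Flt3 is higher at each step.

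Lymphoid genes were mostly intermediate. Over 23 measured genes the median log2 ratio was 0.80 against the lower and -0.63 against the upper class, and -0.13 against both, with 9 higher and 14 lower. Flt3 RNA followed the protein, at 97.1, 307 and 533 CPM, and was higher in each successive sixth, from 78.7 to 574. Dntt, which adds bases at antigen receptor joints, was at 66.5, 163 and 855 CPM and so had most of its step between the middle and the upper class. Bcl11a and Mef2c, transcription factors of lymphoid priming, were also in between, Mef2c at 187, 281 and 435 CPM. Of the 20 lymphoid genes with at least 50 UMIs, 4 were above both ends (beside 30.7%) and 1 below both (beside 28.6%). None was a peak (beside 1.74%) and 1 was a dip (beside 1.82%).

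Myeloid genes took several courses. The 10 measured monocyte and macrophage genes were intermediate, with a median log2 ratio of 1.06 against the lower and -0.63 against the upper class. In 4 of them a single cell held over 20% of the UMIs. Without these the median against both ends was 0.18 in place of -0.09. Ctss, a lysosomal protease of this list, was at 7.83, 35.1 and 51.6 CPM. Mpo, the myeloperoxidase of granules, was at 368, 219 and 119 CPM, but in pool 2 at 96.9, 194 and 103. One lower cell held 13.7% of the Mpo UMIs. The median cell was highest in the middle, at 64.0, 118 and 44.8 CPM, and Mpo was found in 39 lower, 46 middle and 34 upper cells. Itgam, which encodes CD11b, was at 12.5, 35.9 and 31.6 CPM, beside a CD11b signal highest in the middle. In pool 2, however, Itgam was highest in the upper class, at 20.4, 34.6 and 36.6 CPM, and a UMI was found in 24 middle and 25 upper cells. Cd34 was at 345, 551 and 606 CPM and Cd48 at 56.4, 84.8 and 87.4 CPM. Spi1, the myeloid and lymphoid transcription factor PU.1, was at 48.5, 74.2 and 58.3 CPM (log2 ratio 0.48, 0.08 to 0.87), but in pool 1 it was higher in the upper class, at 70.2 beside 61.4 CPM. As a list, 21 myeloid regulators and receptors had a median of -0.10 and 14 granule proteins one of 0.02.

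Erythroid genes were mostly highest in the lower class. Of 21 measured, 20 were lower in the middle than in both ends together, with a median log2 ratio of -1.57. Against the upper class alone the median was 0.43. Car1, a carbonic anhydrase of red cell precursors, was at 559, 35.9 and 26.6 CPM, and 29.6% of its UMIs came from 1 cell. In 13 of the 21 genes a single cell held over 20% of the UMIs, and without these the median was -0.75. The typical cell was graded, with a median share of 0.110% of its UMIs in these genes in the lower, 0.0911% in the middle and 0.0597% in the upper class. The highest cells had 1.11%, 0.331% and 0.258%, and Car1 had a UMI in 26 lower, 28 middle and 19 upper cells. Of the 9 erythroid genes with at least 50 UMIs, 1 was a dip (beside 1.82%): Tfrc, the transferrin receptor, at 71.2, 37.5 and 59.9 CPM (log2 ratio -0.81, -1.32 to -0.33). The 7 measured mast cell and basophil genes were graded, with a median log2 ratio of -1.40 against the lower and 1.83 against the upper class. In 4 of them a single cell held over 20% of the UMIs. Cpa3, a mast cell protease, was at 159, 60.3 and 13.3 CPM.

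**Figure D5:**
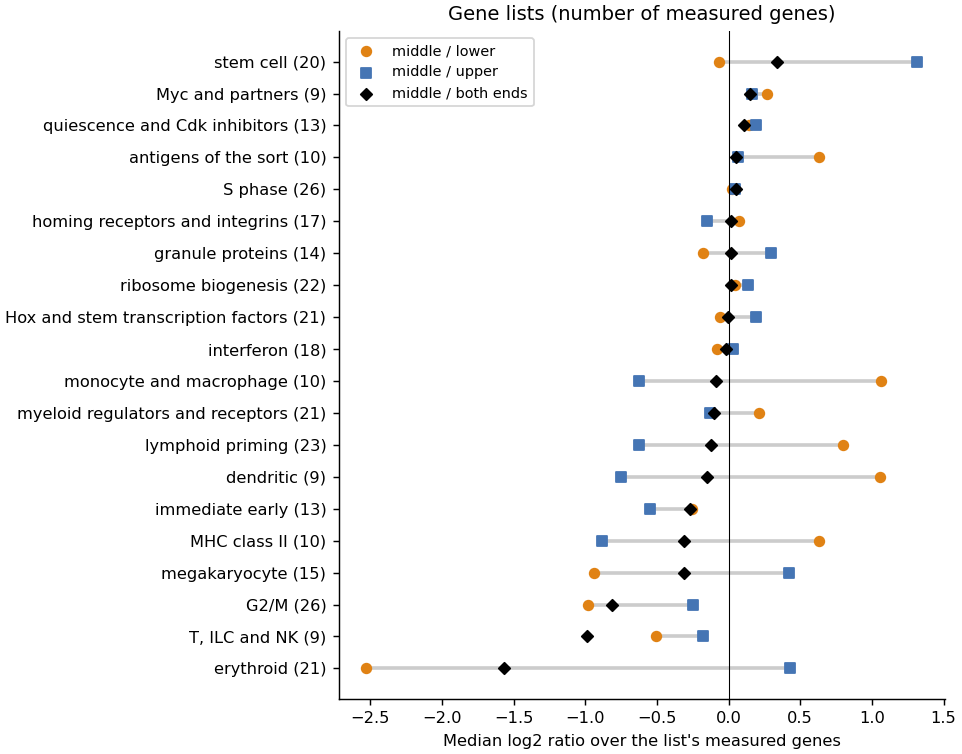
Median log2 ratio over the measured genes of each list with 6 or more tested genes, for middle against lower cells, middle against upper cells and middle against both ends. Stem cell genes stand near 0 against the lower class and at 1.32 against the upper, erythroid genes at -2.53 and 0.43, and immediate early genes are below 0 against each end.

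Genes of the G2 and M phases of the cell cycle were lower in the middle. Of 26 measured, 24 were lower, with a median log2 ratio of -0.81 (-0.62 in pool 1 and -1.10 in pool 2), and -0.98 against the lower and -0.25 against the upper class. Among the 20 with at least 50 UMIs, 11 were below both ends (28.6% of all tested genes were), 6 in each pool (beside 9.5%), and 4 were dips (beside 1.82%). In 11 of the 26 a single cell held over 20% of the UMIs, and without these the median was -0.50. Mki67, the proliferation marker, was at 184, 108 and 138 CPM.

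The difference lay in the cells with higher shares and not in the median cell. The median share of a cell's UMIs in these genes was 0.0557% in the lower, 0.0512% in the middle and 0.0524% in the upper class. The upper quartile was 0.117%, 0.0780% and 0.0796%, and the highest cells had 1.25%, 0.504% and 0.599%. One lower cell held 12.2% of the list's UMIs. Top2a, the topoisomerase of dividing cells, was at 247, 180 and 262 CPM (log2 ratio -0.50, -0.72 to -0.27), yet a UMI was found in 39 middle cells and in 34 of each end. Its sixths were 139, 338, 251, 104, 91.3 and 428 CPM, which is no trough in the middle. The 26 S phase genes had a median of 0.05, with -0.16 in pool 1 and 0.30 in pool 2. Their median share per cell was 0.131%, 0.181% and 0.140% in the lower, middle and upper class.

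Most B lineage genes were high in 1 middle cell. This cell, from pool 1, had a CD127 signal of 29635, a CD135 signal of 445 and 33929 gene UMIs. CD127 is the interleukin 7 receptor, a protein of lymphoid progenitors. The cell held 63.8% of the UMIs of the 10 measured B lineage genes and carried 9 of them, among them 37 of 40 UMIs of Igll1 and 40 of 54 of Vpreb1, parts of the surrogate light chain. The list's median was 3.14 with this cell, and -0.36 without it over the 7 genes that then had over 3 UMIs on either side. The same cell also held the most S phase UMIs. Without it there were 165 peaks and 189 dips, beside 152 and 159, and the log2 ratio of Top2a was -0.89 in place of -0.50. Cells with a CD127 signal above 2000 numbered 3 in the lower, 2 in the middle and 9 in the upper class.

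Of the 12 peaks with at least 200 UMIs, 4 were pseudogenes that resemble mitochondrial transcripts (Gm10222, Gm13340, Gm28439 and Gm29216), and this group was examined after its values had been seen. No gene of the mitochondrial chromosome was in the counts. By alignment to the 37 mitochondrial transcripts, 14 counted nuclear genes matched one over at least 80% of their length with at least 90% identity. Of the 12 with at least 50 UMIs, 11 were above both ends (30.7% of all tested genes were) and 6 were peaks (beside 1.74%). Since these copies share sequence, they are not separate measurements. Gm29216, a copy of mt-Co1 on chromosome 1 (24615706 to 24616197), was at 736, 1459 and 869 CPM.

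Together the 14 genes made up 0.665% of the gene UMIs in the lower, 0.966% in the middle and 0.573% in the upper class (log2 ratio 0.64, 0.61 to 0.67). In pool 1 the shares were 0.776%, 1.06% and 0.694% and in pool 2 0.535%, 0.872% and 0.441%. The typical cells of the classes were closer, with medians of 0.279%, 0.309% and 0.195%, and the cells of each class ranged widely, up to 5.03% in the middle. Over sixths from lowest to highest CD135 the summed shares were 0.498%, 0.805%, 1.05%, 0.880%, 0.549% and 0.596%. The medians per cell were 0.267%, 0.294%, 0.478%, 0.249%, 0.149% and 0.276%. Within the middle class, only the third sixth thus had a raised median. More than 1% was found in 23 of 64 middle, 16 of 63 lower and 12 of 64 upper cells. Such RNA can mark the quality of a cell or its mitochondrial content, and its part in the other differences was not tested. Without the cells above 1% there were 161 peaks and 197 dips. All 12 named genes above both ends stayed above them there, and all 12 below stayed below. This was no test, because the genes were chosen by their values over all kept cells and most of these cells remained. In the remaining cells the log2 ratio of Hk3 was 1.37, of Hlf 0.60 and of Jun -1.09.

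Gvin1, an interferon-inducible GTPase-like gene, and Slc16a11, a transporter of the monocarboxylate family, were added after their values had been seen. Gvin1 was at 218, 412 and 302 CPM, and 60 of 64 middle cells carried it, beside 46 of 63 lower and 51 of 64 upper cells. Slc16a11 was at 17.2, 52.2 and 29.1 CPM, 3.03-fold above the lower and 1.79-fold above the upper class. Tmem176b, a membrane protein of immune cells, was at 258, 351 and 261 CPM, above both ends in each pool. Interferon genes as a list had a median log2 ratio of -0.02 over 18 genes, 9 higher and 9 lower.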

How the data were processed

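Per the labels' protocols, single cells were sorted into 384-well plates, and an adapted CEL-seq2 method primed on the poly(A) tail gave the libraries, with a molecular identifier of 6 bases and ERCC spike-ins. The authors deposited raw, not normalized, UMI counts for each gene in each cell. The submitters' processing notes name the build GRCh38, a human build, while the identifiers are those of mouse genes. Aligner, counting tool, UMI collapsing and strand setting: not given in the sources used here. Symbols and positions came from GENCODE M21 (GRCm38) by identifier, which gave 20530 of 20764 genes a symbol.

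One lower cell of pool 2 with 708 gene UMIs, under 20% of its pool's median, was left out after ranking. Doublets were not called, as wells received single cells. Ratios have exact conditional binomial intervals, CPM exact Poisson intervals and shares of cells Clopper-Pearson intervals, computed with scipy 1.17.1. The code for the ratios was checked on simulated Poisson class sums, which hold no spread between cells. A side at 0 was set at 3 UMIs over the class. List medians took members with at least 10 UMIs, and those against 1 end or within a pool took members with over 3 UMIs on either side. Shares of cells with a UMI are given unthinned unless thinning is named; thinning to 12147 UMIs left out 7 middle, 4 lower and 8 upper cells.

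Named genes had at least 50 UMIs, no cell with over 20% of them, a symbol other than those of predicted models, pseudogenes and ribosomal proteins, and a middle above (or below) both ends in the sum and in each pool. The 12 per direction whose nearer-end ratio was best bounded from 0 were named. Added were Dach1, the genes of the stained proteins and up to 4 members with most UMIs of each list described. Gvin1, Slc16a11, Tmem176b, Robo4, Procr, Tfrc, Itgam, Atp6v1h, the other list members named, and the pseudogenes were chosen after their values were seen. The classes, members and lists were chosen with earlier results of these data known. Alternatives changed the UMI minimum, the fold, the width of the classes, the scaling, the depth and the cells kept.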

Additional observations from a re-analysis of the deposited data

How the results depend on the processing

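All values rest on 64, 64 and 63 cells of 1 biological sample, so differences between mice could not be assessed, and genes with few UMIs pass a fold rule more readily. The counts of 152 peaks and 159 dips became 344 and 408 with a minimum of 20 UMIs, 12 and 3 with a minimum of 200, 16 and 30 at 2-fold, and 35 and 42 when the fold had to be passed in each pool as well. Dips numbered 344 with the middle narrowed to ranks 41 to 56 and 81 with the ends narrowed to 16 cells each per pool. Pool 1 alone gave 370 peaks and 429 dips and pool 2 alone 358 and 460. The other settings left both counts within 1.5 times of the main ones. Of the 12 named genes per direction, 11 above both ends stayed so with the narrow middle, 10 below both ends with the narrow ends and 11 with thinned counts. Among values whose interval excluded 0, signs turned for Fam84b (-0.058) and Procr (-0.051) with the narrow middle, Il7r (0.92), Igll1 (-0.081) and the B lineage median (-0.081) without CD127-high cells, Ifngr1 (0.013) with thinned counts and Cd74 (0.23) in pool 1 alone, and for the B lineage median (-0.27 without members held by 1 cell and -0.36 without the B lineage cell). Where the interval included 0, another 114 values of gene ratios and 39 of list medians had the other sign, counted over genes or lists and settings together, among them the median of dendritic genes (0.21) and of MHC class II genes (0.22) in pool 1 alone. The causes were not tested beyond the fewer cells or genes that each setting leaves. Counted in the same way, 1381 gene ratios stayed within counting error and 121 moved further. The settings without the B lineage cell and without cells above 1% of mitochondrial-like UMIs were chosen after seeing the data. No paired analysis was possible because no result comes from a test and cells carry no shared replicate number.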

Other observations

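Dach1, named in the series title, did not peak or dip in the middle: it was at 197 CPM in the lower, 127 in the middle and 35 in the upper class, and over sixths at 233, 166, 147, 106, 37.2 and 32.8 CPM. Its log2 ratio to both ends was 0.11 (-0.18 to 0.39).

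Id2, an inhibitor of basic helix-loop-helix factors, met the rule for a dip at 29.0, 3.26 and 26.6 CPM, but 35.6% of its UMIs came from 1 cell and its high values stood in the sixths 1 and 5 (56.5 and 45.7 CPM). MHC class II genes were intermediate, with a median log2 ratio of 0.63 against the lower and -0.88 against the upper class, and 1 upper cell of pool 2 held 27% of their UMIs. Foxo3, a transcription factor of quiescent stem cells, was at 97.1, 140 and 117 CPM and above both ends in each pool.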
